A study of Nicotiana tabacum with 6 samples.

Results

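FPPS (LOC107795792), GGPPS1 (LOC107774226), GGPPS3 (LOC107799556) and GGPPS4 (LOC107799555) are the tobacco genes for farnesyl diphosphate synthase and for 3 copies of geranylgeranyl diphosphate synthase. They were taken by gene number (ncbi_107795792, ncbi_107774226, ncbi_107799556 and ncbi_107799555) from a table of 68476 loci, and all 4 were in it. The table gives FPKM, a fragment count scaled by transcript length and by the mapped fragments of the library, for poly(A) RNA from mature leaves of Nicotiana tabacum. It holds 6 libraries, 3 from plants overexpressing NtispH (OE-NtispH) and 3 from wild-type plants (WT). NtispH encodes the last enzyme of the plastid MEP route to terpenoid precursors. The labels give no cultivar, plant age, promoter or transgenic line. They also leave unsaid if replicates are different plants, and the spread behind each p-value may for that reason be technical.

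Prenyl diphosphate synthases join 5-carbon isoprene units into longer chains. Farnesyl diphosphate synthase makes the C15 chain, mostly in the cytosol from units of the mevalonate route, and that chain feeds sterols, sesquiterpenes such as the tobacco phytoalexin capsidiol, and protein farnesylation. Geranylgeranyl diphosphate synthases make the C20 chain, in plants chiefly in the plastid from units of the MEP route, and that chain feeds carotenoids, the phytyl tail of chlorophyll, gibberellins and the diterpenes of tobacco leaf hairs. Transcript levels per length are compared here, and neither enzyme activity nor product was measured.

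The gene named ISPH did not follow the labels, so every direction below is one between libraries as labelled. That this locus is the overexpressed copy is taken from its name and was not checked by sequence. Further ISPH copies without a name could not be recognised. ISPH (LOC107760258) stood at 2761, 684.6 and 853.7 FPKM in the libraries labelled OE-NtispH replicates 1, 2 and 3, and at 108.2, 3038 and 558.6 FPKM in those labelled WT replicates 1, 2 and 3. All 10 leaf mesophyll genes found (of PsbO, Rca, Lhcb, GAPA, GAPB and atpC) were expressed. By symbol, 12 loci were matched to root genes of nicotine synthesis. Not each need be such a gene, since any QPT, BBL or ODC symbol was taken. Of the 12 loci, 7, among them 4 PMT loci, A622 and MPO1, were listed at 0 in every library. The other 5 of these were not: QPT2A (LOC107829122) and QPT1B (LOC107829123) averaged 30.4 and 5.93 FPKM over the series, ODC (LOC107815922) was at 17.3, 6.10 and 1.22 FPKM in OE-NtispH replicates 1, 2 and 3 and at 0.309 to 1.30 FPKM in WT, and 2 BBL loci stayed below 0.6 FPKM. FPKM does not give the number of reads. Judged by the commonest ratio of low values, WT replicate 1 was the shallowest library, and the rest were 1.02 to 1.17 times as deep.

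GGPPS3 was the C20 synthase copy with the most transcript in the leaf, in every library. It was at 14.8, 22.0 and 12.9 FPKM in OE-NtispH replicates 1, 2 and 3 and at 17.6, 19.97 and 19.0 FPKM in WT replicates 1, 2 and 3. The groups overlapped, with the highest and the lowest value both in OE-NtispH libraries. Averaged over all 6 libraries, 17.7 FPKM placed GGPPS3 above 85.3% of the 40725 tested loci, those averaging 0.5 FPKM or more.

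GGPPS1 was the other copy at a substantial level. It was at 8.93, 13.7 and 6.00 FPKM in OE-NtispH replicates 1, 2 and 3, and at 10.7, 11.8 and 13.3 FPKM in WT replicates 1, 2 and 3. These groups overlapped too, again with both extremes in OE-NtispH. GGPPS1 was below GGPPS3 in 6 of 6 libraries, and the ratio of GGPPS3 to GGPPS1 in FPKM ran only from 1.43 to 2.14. On log2(FPKM + 1) both copies moved together over the libraries (Pearson r = 0.957, n = 6 libraries, given as a description): both were highest in OE-NtispH replicate 2 and lowest in OE-NtispH replicate 3.

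GGPPS4 was close to absent. It was listed at 0.319, 0 and 0.410 FPKM in OE-NtispH replicates 1, 2 and 3, and at 0.362, 0.290 and 0.461 FPKM in WT replicates 1, 2 and 3. The values overlapped, and its mean of 0.307 FPKM kept it below the level tested, so 3 of the 4 genes entered the test. In the RefSeq gene order of the assembly ASM71507v2, GGPPS4 and GGPPS3 are direct neighbours with 0 genes between them, so adjacent loci differed in mean FPKM by more than an order of magnitude. The rule by which fragments matching several copies were assigned is not given in the sources used here, and the split between near-identical copies is uncertain to that extent.

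GGPPS3 thus held 61.5%, 61.5% and 66.7% of the summed GGPPS FPKM in OE-NtispH replicates 1, 2 and 3, and 61.4%, 62.3% and 58.0% in WT replicates 1, 2 and 3. GGPPS1 held between 31.1% and 40.5% in all libraries and GGPPS4 at most 2.13%. A further copy with a name, GGPPS2 (LOC107822513), averaged 3.69 ± 0.13 FPKM in OE-NtispH and 3.75 ± 0.87 FPKM in WT (SD, n = 3 each). Counting it in, GGPPS2 would hold 8.59% to 16.6% of the C20 synthase FPKM, and GGPPS3 would still be the highest copy in 6 of 6 libraries. Loci of the same family without a name could not be recognised from the tables used and are not in these sums.

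**Figure D1:**
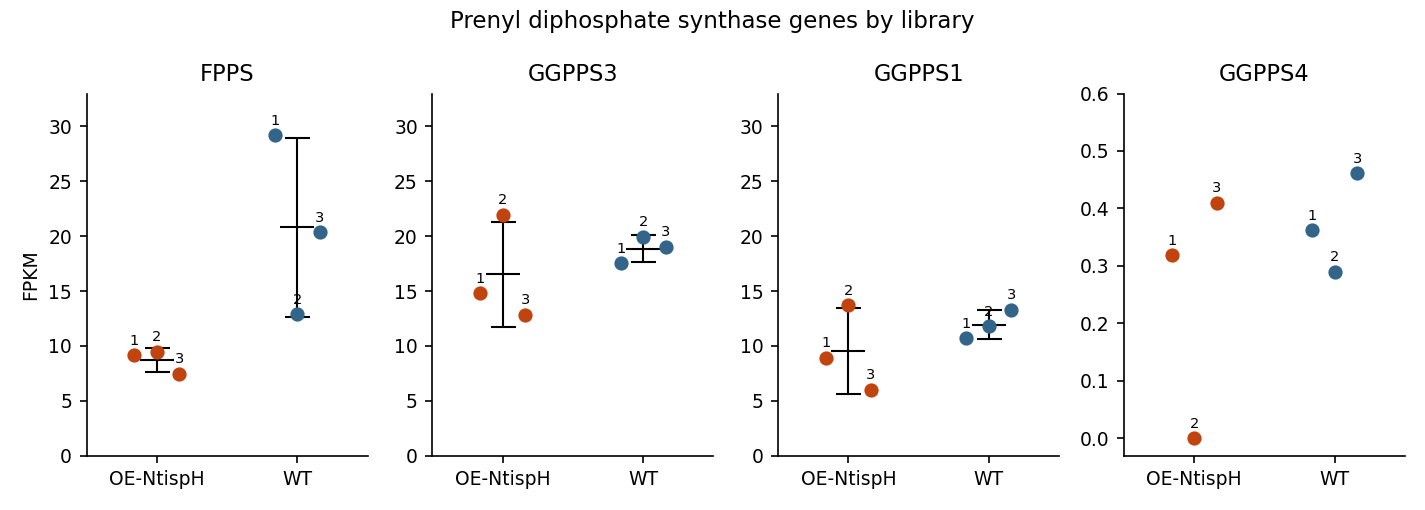
FPKM (vertical axis, linear) of the 4 genes in each library, OE-NtispH on the left and WT on the right. Points are libraries with their replicate numbers, and bars are mean ± SD (n = 3; none is drawn for GGPPS4, which has its own scale and a library at 0). The OE-NtispH points of FPPS, 7.46 to 9.47 FPKM, all lie below the WT points, 12.9 to 29.2 FPKM, while the groups overlap for the 3 GGPPS genes.

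FPPS, the C15 synthase, was lower in the libraries labelled OE-NtispH without passing the test. It was at 9.17, 9.47 and 7.46 FPKM in OE-NtispH replicates 1, 2 and 3. In WT replicates 1, 2 and 3 it was at 29.2, 12.9 and 20.3 FPKM. The groups did not overlap, and the nearest libraries were OE-NtispH replicate 2 and WT replicate 2, the WT library with the highest ISPH. Mean FPPS was 8.70 ± 1.08 FPKM in OE-NtispH and 20.8 ± 8.15 FPKM in WT (SD, n = 3 each), a ratio of 0.418. On the log2(FPKM + 1) scale, which understates changes of low genes, the difference was -1.11 ± 0.26 (SE), with a 95% interval of -1.72 to -0.49 (limma, unadjusted p = 0.00351, adjusted p = 0.0677 over all tested loci by Benjamini-Hochberg).

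That result stands against a broad background. Of the 40725 loci tested, 1.81% passed at an adjusted p of 0.05 (0.567% lower and 1.24% higher in OE-NtispH). Of the 3 synthase genes tested, 0 passed in limma, and 1, FPPS, had an unadjusted p under 0.05, as 26.4% of all tested loci did. Groups that do not overlap, with OE-NtispH lower, were found for 8.59% of tested loci, FPPS among them, and groups that do not overlap in either direction for 32.5%. A log2 difference below 0, as all 3 genes had, was found for 33.7%, and 5.2% of tested loci had an adjusted p no larger than that of FPPS. Its log2 difference itself was rarer, since 0.764% of tested loci had one as low or lower. That share is over all loci from a mean of 0.5 FPKM, of which 18748 averaged 5 FPKM or more. The log2(FPKM + 1) scale understates changes of low genes, so the share depends in part on the level of FPPS. The median over all tested loci was 0.13, so that relative to the median locus FPPS stood 0.13 further down. In RNA from whole leaves, fewer cells of a type and less transcript per cell cannot be told apart.

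Neither abundant C20 synthase differed beyond its spread. GGPPS1 averaged 9.56 ± 3.90 FPKM in OE-NtispH and 11.9 ± 1.31 FPKM in WT (SD, n = 3 each), a log2 difference of -0.35 with a 95% interval of -0.94 to 0.23 (limma, adjusted p = 0.397). GGPPS3 averaged 16.5 ± 4.79 FPKM in OE-NtispH and 18.9 ± 1.21 FPKM in WT (SD, n = 3 each), a log2 difference of -0.21 with a 95% interval of -0.63 to 0.21 (limma, adjusted p = 0.49). The intervals leave room for a fall by nearly as much as the FPPS difference in GGPPS1. Single OE-NtispH libraries weighed on both, in opposite ways. Without OE-NtispH replicate 3 the differences of GGPPS1 and GGPPS3 were -0.09 and -0.06, and without OE-NtispH replicate 2 they were -0.63 and -0.42, past the threshold in neither case. GGPPS2 differed by -0.004, with a 95% interval of -0.37 to 0.36 (limma, adjusted p = 0.991).

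The libraries in which FPPS varied were not those in which GGPPS1 and GGPPS3 varied. Among the WT libraries FPPS had an SD of 0.56 on log2(FPKM + 1), above that of 96.5% of the 18748 loci averaging 5 FPKM or more. Among the OE-NtispH libraries its SD was 0.17, near the middle of those loci (above 46.2% of them). For GGPPS1 and GGPPS3 the wider group was OE-NtispH. GGPPS1 had an SD of 0.54 there and 0.15 in WT, above 94% and 54.1% of those loci. GGPPS3 had an SD of 0.38 in OE-NtispH and 0.09 in WT, above 86.9% and 26.9% of them. GGPPS2, a further named C20 synthase, was wider in WT, with an SD of 0.87 FPKM there and 0.13 FPKM in OE-NtispH. Whether these spreads differ was not tested.

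Set against each other per length, the C15 synthase was below the summed GGPPS1, GGPPS3 and GGPPS4 in 5 of 6 libraries, and below the sum with GGPPS2 added in 6 of 6. FPPS reached 0.381, 0.265 and 0.387 times the summed FPKM of GGPPS1, GGPPS3 and GGPPS4 in OE-NtispH replicates 1, 2 and 3. In WT replicates 1, 2 and 3 the ratio was 1.02, 0.403 and 0.621. The groups did not overlap, but WT replicate 2 at 0.403 was next to OE-NtispH replicate 3 at 0.387, and FPPS exceeded this sum in WT replicate 1 alone. With GGPPS2 in the sum the ratio was 0.332, 0.241 and 0.323 in OE-NtispH replicates 1, 2 and 3 and 0.876, 0.368 and 0.56 in WT replicates 1, 2 and 3, so FPPS then exceeded it in no library. The difference of the log2 ratio was -0.83 between the group means, and -0.50 without WT replicate 1. No p is given for a ratio over chosen genes. FPPS is a single named locus set against a sum of several. Farnesyl diphosphate synthase loci without a name could not be recognised and are not counted. The ratio therefore orders these named genes, not the branches as a whole.

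The order of single genes changed accordingly with the library. FPPS was below GGPPS3 in 3 of 3 OE-NtispH libraries and in 1 of 3 WT libraries, so these neighbours in level overlap over the series. FPPS was above GGPPS1 in 2 of 3 OE-NtispH libraries and in 3 of 3 WT libraries. In the OE-NtispH libraries FPPS and GGPPS1 did not differ beyond their spread. GGPPS2 and GGPPS4 stayed below these 3 genes, in that order, in 6 of 6 libraries. FPPS made up 27.6%, 21.0% and 27.9% of the summed FPKM of the 4 genes in OE-NtispH replicates 1, 2 and 3, and 50.5%, 28.7% and 38.3% in WT replicates 1, 2 and 3.

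**Figure D2:**
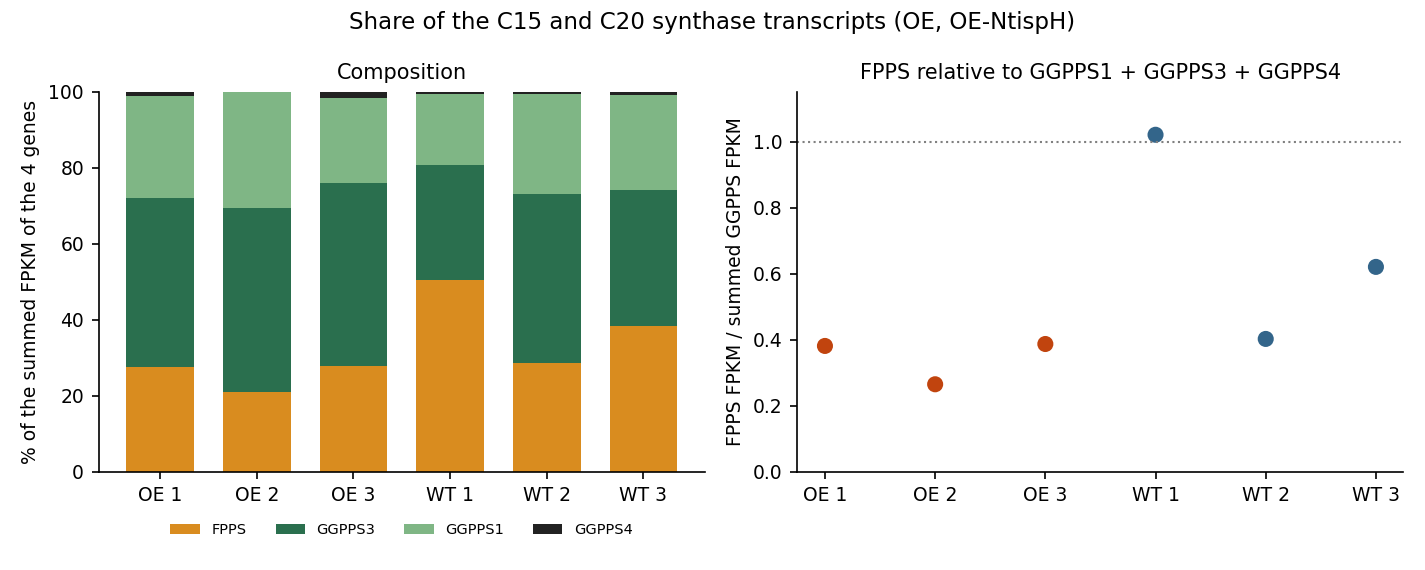
Left, percent of the summed FPKM of the 4 genes held by each gene in every library, OE-NtispH (OE) before WT. Right, FPPS FPKM divided by the summed FPKM of GGPPS1, GGPPS3 and GGPPS4, with a dotted line at equality. The ratio lies at 0.265 to 0.387 in OE-NtispH and at 0.403 to 1.02 in WT, and one WT library reaches the line; with GGPPS2 in the sum, which is not drawn, none does.

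Upstream of the synthases, genes of the mevalonate route and of the isomerase that interconverts the isoprene units were examined. Of the mevalonate route only HMG-CoA reductase genes were found, and its other steps were not matched by the symbols searched. The isomerase has cytosolic and plastid forms, and ipi1 is known as a plastid form in tobacco, so this list does not describe the cytosol alone. Among the 4 found, 0 passed in either direction in limma (2 had an unadjusted p under 0.05, against 26.4% of all tested loci), 2 were below 0, and the list's median log2 difference was -0.39, against 0.13 for all tested loci. HMGR2 (LOC107777769), a copy of HMG-CoA reductase, the rate-limiting enzyme of the mevalonate route, was at 7.70, 7.10 and 11.4 FPKM in OE-NtispH replicates 1, 2 and 3. In WT replicates 1, 2 and 3 it was at 108.4, 36.4 and 18.4 FPKM (limma, adjusted p = 0.126). Each of the WT values was above each of the OE-NtispH values, and WT replicate 1 was the highest, as for FPPS. HMGR1 (LOC107832729), another copy, lay the other way at a low level, at 2.94 ± 1.83 FPKM in OE-NtispH and 1.95 ± 0.74 FPKM in WT (SD, n = 3 each), with overlapping groups (limma, adjusted p = 0.664).

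The isomerase gene ipi2 (LOC107808635) had the same arrangement. It was at 24.0, 22.4 and 22.4 FPKM in OE-NtispH replicates 1, 2 and 3 and at 69.3, 44.3 and 33.95 FPKM in WT replicates 1, 2 and 3, a log2 difference of -1.01 ± 0.23 (SE; limma, adjusted p = 0.0624). The ratio of FPPS to ipi2 overlapped between the groups, at 0.382, 0.422 and 0.333 in OE-NtispH and 0.421, 0.291 and 0.599 in WT. The other isomerase gene, ipi1 (LOC107828834), lay the other way, at 30.1 to 42.1 FPKM in OE-NtispH and 28.7 to 30.0 FPKM in WT (limma, adjusted p = 0.337). Its groups did not overlap either, though narrowly, with 30.08 FPKM in OE-NtispH replicate 2 and 29.98 FPKM in WT replicate 2. Groups that do not overlap in either direction were found for 32.5% of tested loci.

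**Figure D3:**
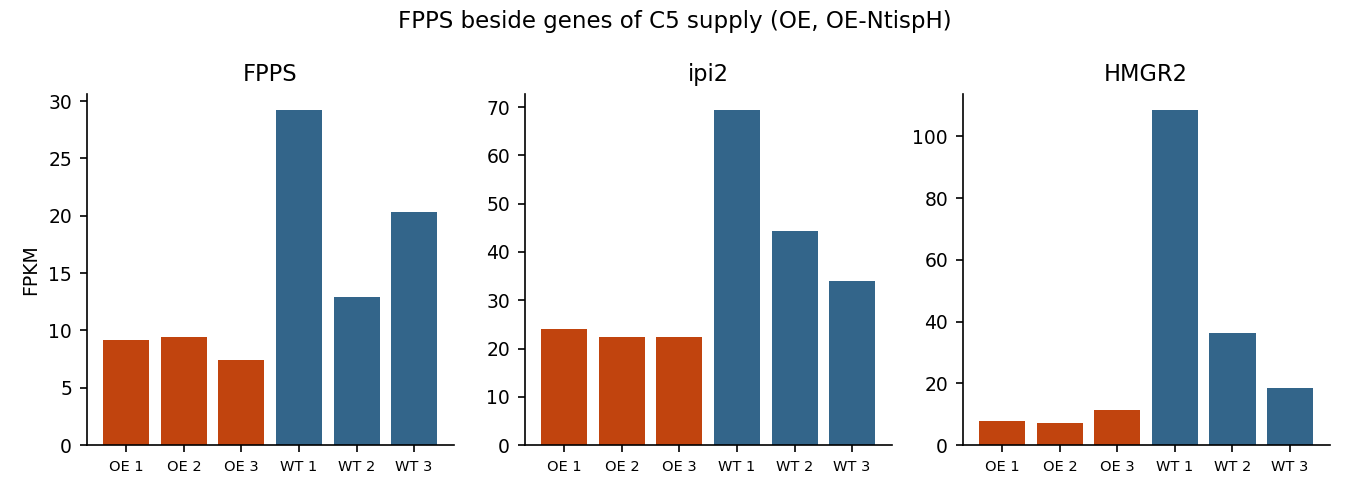
FPKM (linear axes from 0) of FPPS, ipi2 and HMGR2 in each library, OE-NtispH (OE) left of WT. For each gene the 3 OE-NtispH libraries lie below the 3 WT libraries and WT replicate 1 is the highest, at 29.2, 69.3 and 108.4 FPKM, while the order of WT replicates 2 and 3 is reversed for FPPS. HMGR1 and ipi1, the list's other genes, are not drawn and were higher in mean in OE-NtispH.

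Genes that act further down the C15 branch did not share this arrangement. None of those found takes farnesyl diphosphate itself, and the enzymes that do, such as squalene synthase and sesquiterpene cyclases, were not matched by the symbols searched and are not in this count. Of 3 found, 0 passed in limma (0 at an unadjusted p under 0.05) and 1 was below 0, with a median log2 difference of 0.08. With median-of-ratios scaling or quantile normalization 2 were below 0, and the median was -0.07 under each. CAS1 (LOC107762593), cycloartenol synthase of sterol synthesis, was at 10.6 ± 2.60 FPKM in OE-NtispH and 8.32 ± 0.58 FPKM in WT (SD, n = 3 each). CYP51 (LOC107764727), a sterol demethylase, was at 21.8 ± 1.73 FPKM in OE-NtispH and 20.6 ± 2.14 FPKM in WT (SD, n = 3 each). CYP71D20 (LOC107759261), a sesquiterpene hydroxylase on the way to capsidiol, was at 15.8, 3.68 and 6.16 FPKM in OE-NtispH replicates 1, 2 and 3 and at 3.67, 21.6 and 92.5 FPKM in WT replicates 1, 2 and 3. The groups overlapped for all 3 genes, and CYP71D20 was at its lowest, level with OE-NtispH replicate 2, in WT replicate 1, the library in which FPPS was highest.

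The genes of the C20 branch, which take geranylgeranyl diphosphate or products of it, went in different directions while GGPPS1 and GGPPS3 overlapped between groups. Of 5 tested, 1 was higher and 1 lower in OE-NtispH at an adjusted p of 0.05, as 1.24% and 0.567% of all tested loci were. Their median log2 difference was -0.30, against 0.13 for all tested loci. By sign 3 were below 0, and 4 were with median-of-ratios scaling or quantile normalization. The geranylgeranyl reductase gene chlP (LOC107783257) rose, to 493.6, 549.2 and 526.2 FPKM in OE-NtispH replicates 1, 2 and 3, against 167.2, 308.5 and 226.4 FPKM in WT replicates 1, 2 and 3 (limma, adjusted p = 0.0406). The phytoene synthase gene psy-1 (LOC107772713) fell, to 49.5, 68.3 and 66.9 FPKM in OE-NtispH replicates 1, 2 and 3, against 105.2, 114.0 and 126.6 FPKM in WT replicates 1, 2 and 3 (limma, adjusted p = 0.0388). PSY2 (LOC107818367), another phytoene synthase gene, was at 1.07 ± 0.47 FPKM in OE-NtispH and 2.63 ± 0.40 FPKM in WT (SD, n = 3 each; limma, adjusted p = 0.0668), without overlap. Groups without overlap and with OE-NtispH lower, as for psy-1 and PSY2, were found for 8.59% of tested loci. The chlP call ended with median-of-ratios scaling (limma, adjusted p = 0.0686) and quantile normalization (limma, adjusted p = 0.0516). Over 14 alternatives chlP passed in 4 and psy-1 in 7, with limma's adjusted p of 0.0309 to 0.13 and of 0.0169 to 0.172.

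Both of those genes were above the summed GGPPS FPKM, 19.3 to 35.7, in every library. CHLG (LOC107781977), chlorophyll synthase, was at 24.5 ± 4.22 FPKM in OE-NtispH and 30.2 ± 2.17 FPKM in WT (SD, n = 3 each; limma, adjusted p = 0.209), and NtABS (LOC107816701), the abienol synthase of leaf hairs, at 10.7 ± 1.03 and 10.5 ± 1.12 FPKM in those groups (limma, adjusted p = 0.912).

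The plastid MEP route supplies the C20 branch. Only DXS, DXR and ISPH loci of it were found, and the steps between DXR and ISPH were not matched by the symbols searched. Among the loci found the median log2 difference was -0.07, against 0.13 for all tested loci. Of these 5 genes 1 passed, lower in OE-NtispH, as 0.567% of all tested loci did. That gene was dxs (LOC107790348), for the entry enzyme of the route, at 70.9 ± 9.06 FPKM in OE-NtispH and 113.4 ± 0.16 FPKM in WT (SD, n = 3 each; limma, adjusted p = 0.0473). It passed in 7 of 14 alternatives, with adjusted p of 0.0244 to 0.191. Another dxs locus (LOC107818796) was at 75.9 ± 18.9 FPKM in OE-NtispH and 130.0 ± 6.05 FPKM in WT (SD, n = 3 each; limma, adjusted p = 0.0564), without overlap. Both of these loci were lower in every OE-NtispH library than in any WT library, as 8.59% of tested loci were. A low DXS locus (LOC107773391) lay the other way, at 3.41 ± 1.76 FPKM in OE-NtispH and 1.84 ± 0.12 FPKM in WT (SD, n = 3 each; limma, adjusted p = 0.304). DXR (LOC107818871), the enzyme after it, was at 25.6 ± 2.78 FPKM in OE-NtispH and 26.9 ± 1.30 FPKM in WT (SD, n = 3 each). Set beside ISPH, FPPS was at its highest values, 29.2 and 20.3 FPKM in WT replicates 1 and 3, in the libraries with the 2 lowest ISPH values, 108.2 and 558.6 FPKM. WT replicate 2 had the highest ISPH value, 3038 FPKM, and an FPPS value of 12.9 FPKM, above every OE-NtispH library.

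**Figure D4:**
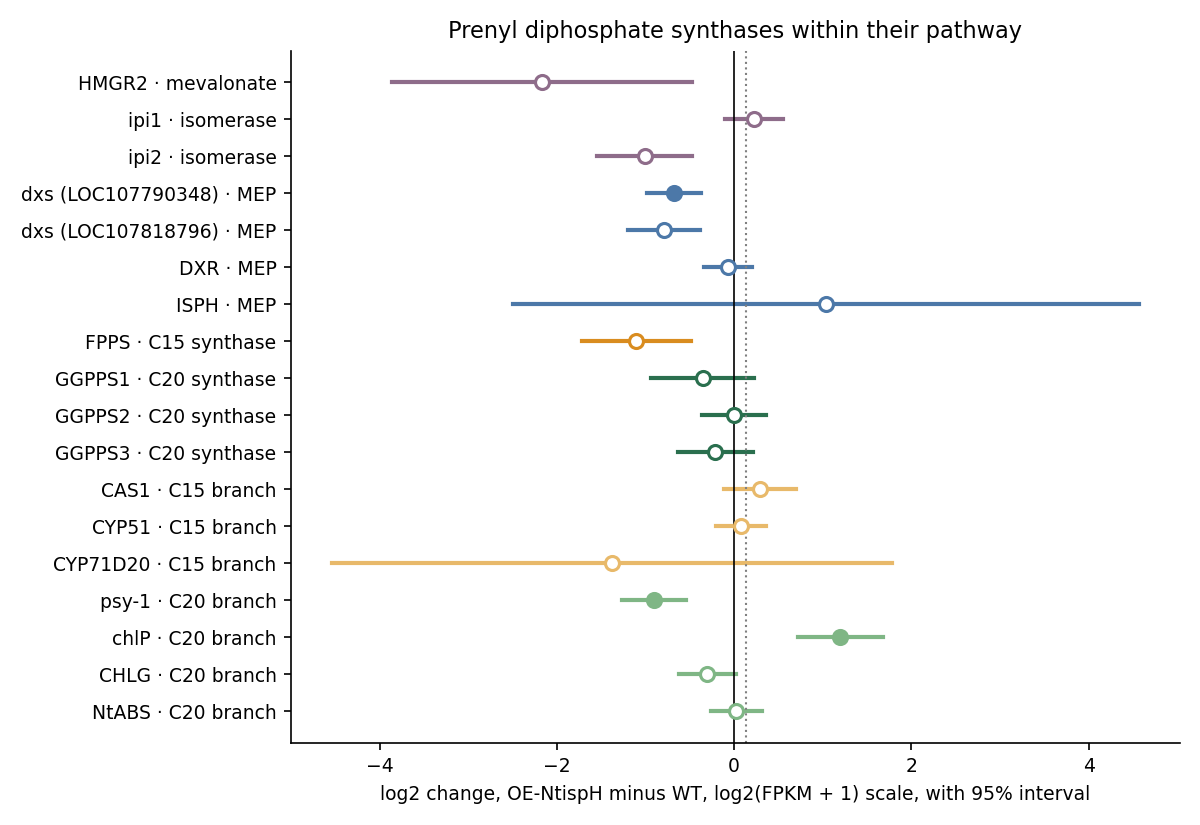
Log2 difference, OE-NtispH minus WT, on the log2(FPKM + 1) scale, with its 95% interval, for the synthases and the listed genes of supply and of each branch that average 5 FPKM or more (GGPPS2 is drawn although it averages less; HMGR1, the low DXS locus and PSY2 average less and are not drawn), in pathway order. Filled points passed the test at an adjusted p of 0.05, and the dotted line is the median of all tested loci, 0.13. FPPS at -1.11 lies beside ipi2 at -1.01, and the intervals of GGPPS1, GGPPS2 and GGPPS3 all hold 0.

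Among 958 other tested loci with a gene name, those most like FPPS by Pearson r of log2(FPKM + 1) over the 6 libraries were PCNA (LOC107779602, r = 0.906), the sliding clamp of DNA replication, DCUP (LOC107813684, r = 0.9), a uroporphyrinogen decarboxylase gene of tetrapyrrole synthesis, and ipi2 (r = 0.884). As many as 174 tested loci, named or not, were at least as like FPPS as PCNA. Those most like GGPPS1 were CesA1 (LOC107832318, r = 0.984), a cellulose synthase gene, ACC (LOC107802092, r = 0.977) and EXGT-N2 (LOC107768220, r = 0.97). GGPPS3 was most like CesA1 (r = 0.971), GGPPS1 (r = 0.957) and ACC (r = 0.956). For comparison, r between FPPS and GGPPS3 was 0.365, between FPPS and GGPPS1 0.48 and between FPPS and GGPPS2 0.469. GGPPS2 did not move with the other C20 copies, at r = -0.223 with GGPPS1 and r = -0.27 with GGPPS3. These values describe 6 libraries of 2 groups and carry no p.

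The leaf markers differed between the groups as well. The summed FPKM of the 10 mesophyll markers was 10517 to 13490 in OE-NtispH and 16328 to 18571 in WT, all 10 were lower in every OE-NtispH library than in any WT library (8.59% of tested loci were), and 2 of them, Lhcb6 and GAPB, passed the test (0.567% of tested loci passed as lower). Over 14 alternatives Lhcb6 passed in 5 and GAPB in 7, with limma's adjusted p of 0.0261 to 0.191 and of 0.0162 to 0.172. The 2 leaf hair markers found, NtABS and NtPDR1, summed to 123.5 to 236.7 FPKM in OE-NtispH and 119.8 to 156.2 FPKM in WT. Most of this sum was NtPDR1 (LOC107799533), at 180.8 ± 60.9 FPKM in OE-NtispH and 123.1 ± 19.5 FPKM in WT (SD, n = 3 each). Its groups overlapped (limma, adjusted p = 0.272), and NtABS was nearly level, at 10.7 FPKM in OE-NtispH and 10.5 FPKM in WT. The part of the mesophyll or leaf hair share in the FPPS values was not tested.

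Across 14 other ways of processing or leaving out a library, FPPS remained below 0 and never passed the threshold. Its log2 difference lay between -1.39 without WT replicate 2 and -0.84 without WT replicate 1, with adjusted p between 0.0589 and 0.197 (limma). GGPPS1 and GGPPS3 were below 0 in all 14 as well, at -0.63 to -0.09 and at -0.42 to -0.06, and passed in none.

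**Figure D5:**
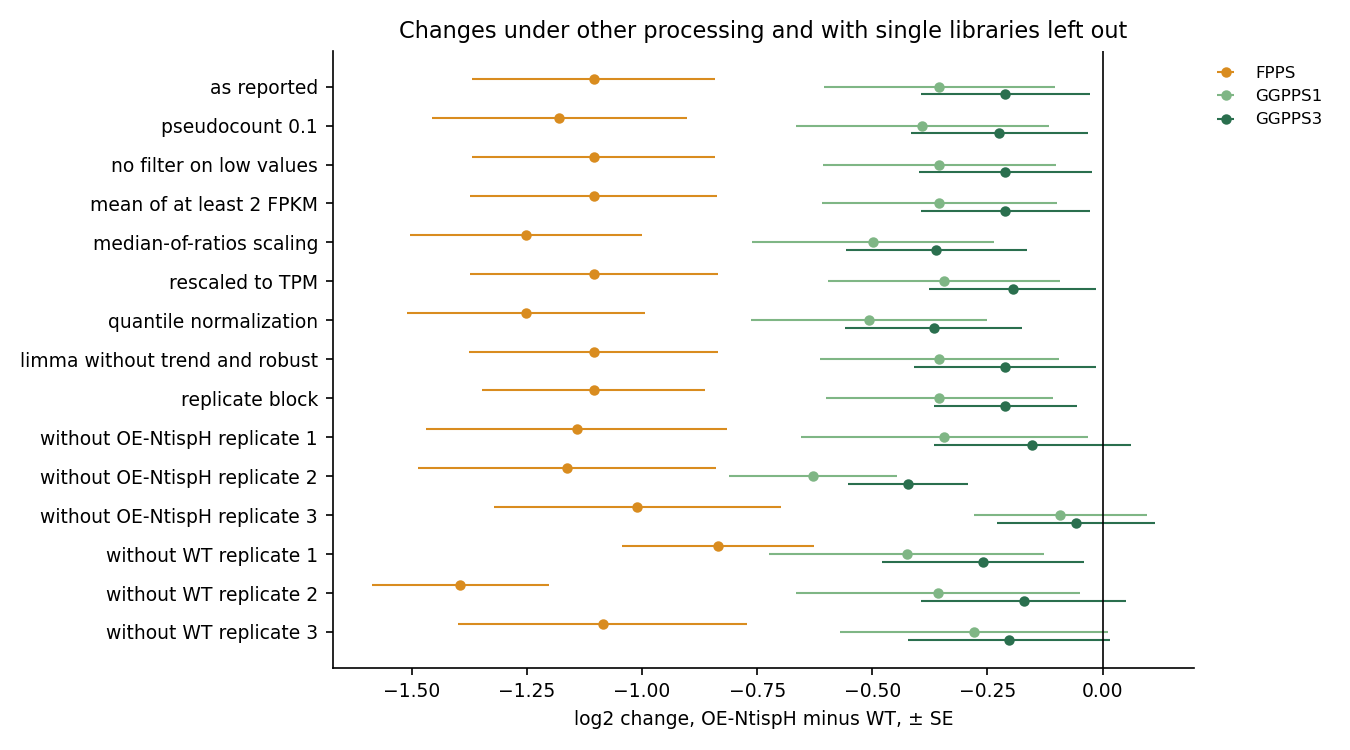
Log2 difference, OE-NtispH minus WT, with its standard error, of FPPS, GGPPS1 and GGPPS3 as reported and under 14 alternatives, named at the left. FPPS lies between -1.39 and -0.84 throughout, below the GGPPS genes in every setting, and the GGPPS genes come nearest to 0 without OE-NtispH replicate 3.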

How the data were processed

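RNA of mature leaves was sequenced in 3 OE-NtispH and 3 WT libraries, grouped by sample title. The authors deposited FPKM values, 1 column per library, summing to 747832 to 770304. Tools named, per the submitters' processing notes, are RSEM, StringTie, HISAT2, Bowtie2 and fastp; their versions and roles, the build and the annotation are not given. Per the labels' protocols, poly(A) RNA was captured and a dUTP strand-specific variant is described. FPKM is scaled to the library, so a change in abundant transcripts moves all other values.

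Names came from the RefSeq gene table of ASM71507v2, to which 49268 of 61780 NCBI gene numbers matched. The 40725 loci averaging 0.5 FPKM or more were compared as log2(FPKM + 1) in R 4.3.3 by limma 3.58.1 (two-sided empirical Bayes, trend, robust), adjusted by Benjamini-Hochberg over all of them, without a replicate block. Pandas 2.3.3 and matplotlib 3.10.9 in Python 3.11.15 made the tables and figures. Simulated data of 40725 genes had 200 genes of middle level changed. Of those changed by a log2 of 1, 52.7% were called by the same fit, and of those changed by 2, 91.3%. The simulated noise was independent between genes and only those 200 changed, while 26.4% of tested loci had an unadjusted p under 0.05 (limma). Recovery in the measured data may therefore differ.

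Relative depth is the commonest ratio to WT replicate 1 of values between 0.05 and 0.3 FPKM. No counting interval can be given without counts. Genes, lists and tests were chosen with earlier results of these data known. The genes named are the 4 synthases, the listed genes of supply and of both branches found by symbol, and markers of cell types. To these come the 3 named genes most like each synthase with a mean of at least 1 FPKM. From the lists, 7 symbols that matched by spelling only (cyclins, for example) were left out. Values of listed genes of supply and of both branches were to be given from a mean of 5 FPKM. GGPPS2, HMGR1, PSY2 and the low DXS locus were added after their values were seen. Markers of cell types, ODC and the BBL loci among them, were outside this rule. A planned search for relatives by protein sequence was not run, since no protein sequences were used here. Alternatives were another pseudocount, filter, scaling or limma setting, the replicate block and each library left out.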

Additional observations from a re-analysis of the deposited data

How the results depend on the processing

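The directions of FPPS, GGPPS1, GGPPS3, GGPPS4 and of the FPPS to GGPPS ratio were the same under the alternatives run for each (14, 14, 14, 11 and 9), and FPPS, GGPPS1 and GGPPS3 passed in none. The number of loci past the threshold, 737 as reported, was less stable. It was 38 with no filter, 1375 with a mean of at least 2 FPKM, 330 with median-of-ratios scaling and 53 in limma without trend and robust fitting. Leaving out 1 library gave 0 to 3109 loci in limma. Of the OE-NtispH libraries, dropping replicate 1 gave 0 (7216 at an unadjusted p under 0.05), dropping replicate 2 gave 1356 and dropping replicate 3 gave 3109. Of the WT libraries, dropping replicate 1 gave 0 (10208 at an unadjusted p under 0.05), dropping replicate 2 gave 1 and dropping replicate 3 gave 16. The share of higher calls was 68.7% as reported, 41.2% with median-of-ratios scaling and 39.5% with quantile normalization. The cause was not tested.

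Same-numbered libraries showed no common deviation (r of -0.13, 0.04 and -0.16 for replicates 1, 2 and 3, against -0.09 to 0.19 between libraries of other numbers). With 3 libraries per group these values cannot decide whether the numbers pair them. The fit with a replicate block called 68 loci. The GGPPS4 difference was -0.15 on log2(FPKM + 1) and -0.75 with a pseudocount of 0.1, and it has no test as reported; with no filter its adjusted p was 0.554 (limma). The log2 ratio of FPPS to the GGPPS sum differed by -1.14 to -0.50 when single libraries were left out, and by -0.86 when GGPPS2 was added to the sum, a setting chosen after seeing the data. Low values such as those of GGPPS4 are limited by depth, which FPKM does not give.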
